A study of Mus musculus with 6 samples.

Results

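The genes described here are the 5 subunits of the muscle acetylcholine receptor (Chrna1, Chrnb1, Chrnd, Chrne and Chrng) and 5 genes of the response of muscle to loss of its nerve (Ncam1, Runx1, Hdac4, Hdac9 and Gadd45a). Each was taken as the array feature whose annotation lists that symbol and no other, and all 10 had such a feature, out of 65956 features with a value. Only Hdac4 had more than 1, and its feature of highest mean signal was taken. The tissue was soleus, a slow postural calf muscle, from both legs of male mice aged 39 to 41 weeks, profiled on Affymetrix whole-transcript arrays with 1 array per mouse. The 3 cKO mice had the genotype DMP1 Cre Mbtps1 knockout, in which a Cre recombinase under control sequence of the osteocyte gene Dmp1 removes Mbtps1, the gene of site-1 protease. The 3 Control mice were littermates labelled wild type. The sources used here did not say whether the controls carried the Cre or the unrecombined Mbtps1 allele. The recombinase acts in cells that use the Dmp1 promoter, so whole soleus need not lose Mbtps1, whose log2 signal was 7.77, 7.44 and 7.11 in cKO 1 to 3 and 7.39, 7.05 and 7.24 in Control 1 to 3.

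The receptor is a pentamer at the neuromuscular junction that opens when the nerve releases acetylcholine. It is built from α, β and δ subunits with either ε, in adult junctions, or γ, in embryonic and denervated muscle. In innervated fibres the subunit genes are transcribed mainly in the few nuclei beneath the nerve ending, and electrical activity silences them elsewhere. After denervation the class IIa deacetylase HDAC4 builds up in mouse muscle, represses the corepressor gene Dach2, and lets myogenin drive the subunit genes again. NCAM on the fibre surface, the transcription factor RUNX1 and the growth arrest protein GADD45A are standard markers of that state. HDAC9, also known by its short form MITR, belongs to the same deacetylase class, but it represses the subunit genes in innervated mouse muscle and is reported to fall after denervation, so the 5 genes are not all expected to move one way.

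A list of 8 genes of the slow and general myofibre was read on the arrays, and all were measured. It held no fast-fibre gene, so it cannot set soleus apart from other muscle with slow fibres. Slow myosin Myh7 lay between 19.2 and 19.4 log2 units on every array, while the slow light chain gene Myl2 was far lower, between 10.29 and 10.43. Of the 8, 7 had groups that overlapped, and the calcium store gene Casq2 was lower on every cKO array, at 14.79, 14.74 and 14.72 in cKO 1 to 3 and 15.02, 14.89 and 15.3 in Control 1 to 3. Mouse numbers 715, 716 and 733 (Control 1, Control 2 and cKO 1) formed a low range, and 776, 779 and 780 (Control 3, cKO 2 and cKO 3) a high one. The labels did not say what the ranges stand for. The first principal component, with 43.9% of the variance, separated them, with scores of -75.2 to -21.3 for the low and 32 to 56.5 for the high numbers. The second component set cKO 1 apart, at -67.7 against -4.17 to 27.8. Each gene is therefore also given within the low range (1 cKO against 2 Control arrays) and within the high range (2 cKO against 1 Control array).

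In cKO soleus Chrna1, Chrnb1, Ncam1 and Runx1 had higher signals on all 3 arrays than on any Control array, by 1.6-fold to 1.98-fold in the mean. Every cKO array was likewise above every Control array for 8.95% of all features tested, and below for 2.05%. Hdac4 was higher by 1.81-fold in the mean, but its groups overlapped. The adult subunit gene Chrne differed by -0.0040 log2 units, and Chrnd, Hdac9 and Gadd45a by 0.25, 0.14 and 0.067. None of the 10 genes passed an adjusted p of 0.05 in limma, a linear model with the spread shared across features. All adjusted p-values of the genes tested were 0.999. Over all features tested, 0 of 33334 features passed (0%). At an unadjusted p under 0.05 there were 3 of the 9 genes tested, Chrnb1, Ncam1 and Runx1, all higher in cKO. That p was reached by 4.5% of all features tested, with 3.7% higher in cKO and 0.807% lower. Chrng was not tested because its signal exceeded the median of its own array on 1 of 6 arrays, where 3 were required. Counted over all 10 genes, 9 had a higher mean in cKO, against 65.8% of all features tested.

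**Figure D1:**
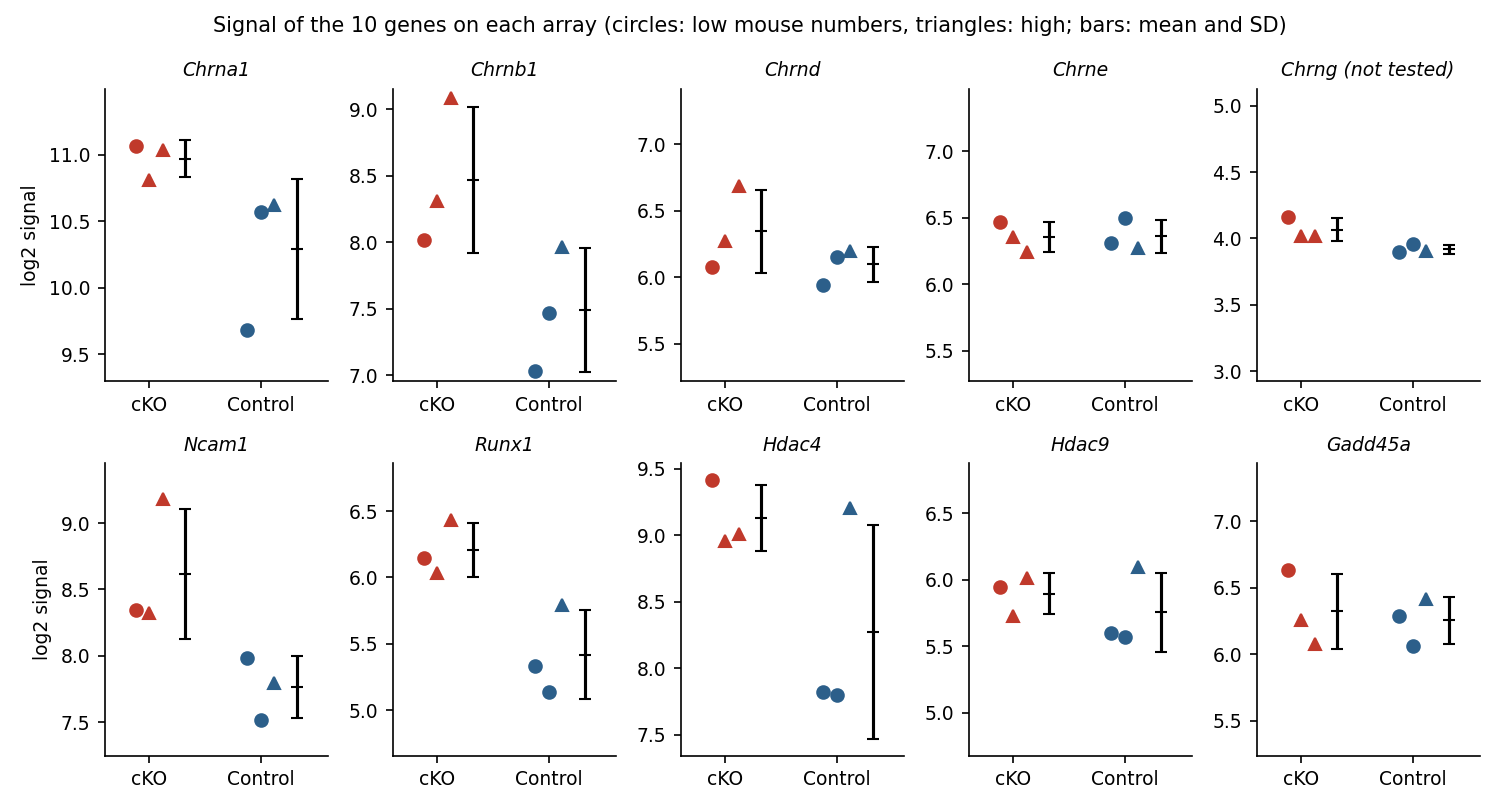
Log2 signal (vertical axes, each spanning 2.2 units) of the 10 genes on the 3 cKO arrays (red) and the 3 Control arrays (blue), with circles for low and triangles for high mouse numbers and black bars for the mean and SD. The red and blue points do not overlap for Chrna1, Chrnb1, Chrng, Ncam1 and Runx1, and they overlap for the other 5 genes. Over all features tested, 8.95% had every cKO array above every Control array.

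Chrna1 encodes the α subunit, which carries the acetylcholine binding sites. Its log2 signal was 11.06, 10.81 and 11.04 in cKO 1 to 3, against 9.68, 10.57 and 10.62 in Control 1 to 3. The groups did not overlap, with 0.189 log2 units between the lowest cKO and the highest Control array, and Control 1 stood far below the rest. The means were 10.97 ± 0.14 in cKO and 10.29 ± 0.53 in Control (SD, n = 3 each), a difference of 0.68 log2 units (SE 0.29, 95% interval -0.023 to 1.38). The unadjusted limma p was 0.0558 and the exact two-sided permutation p was 0.1, the smallest that 3 against 3 arrays can give. Without Control 1 the difference was 0.37. Among low mouse numbers it was 0.94 and among high ones 0.30.

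Chrnb1 encodes the β subunit, through which rapsyn anchors the receptor. It reached 8.02, 8.31 and 9.08 in cKO 1 to 3, against 7.03, 7.47 and 7.96 in Control 1 to 3. Every cKO array was above every Control array, by 0.056 log2 units at the closest point. The difference of 0.98 (SE 0.35, 95% interval 0.14 to 1.82, unadjusted limma p = 0.0280, exact permutation p = 0.1) was the greatest of the 10 genes. Among low mouse numbers it was 0.77 and among high ones 0.73. With the number range as a block it was 0.75 (unadjusted p = 0.0335), and without cKO 3 it was 0.68 (unadjusted p = 0.0805). Over 17 other settings of the processing its unadjusted p ran from 0.00445 to 0.0907.

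Chrnd, the δ subunit gene, neighbours Chrng on chromosome 1. Its signals of 6.08, 6.27 and 6.69 in cKO 1 to 3 and 5.94, 6.15 and 6.20 in Control 1 to 3 overlapped, since cKO 1 lay below Control 2 and Control 3. The difference was 0.25 log2 units (SE 0.19, 95% interval -0.21 to 0.71), which was 0.078 without cKO 3 and 0.051 when quantile normalization was joined to the range block, with 0.034 among low and 0.28 among high numbers.

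Chrne and Chrng are the adult and embryonic alternatives for the same place in the pentamer. Chrne stood at 6.47, 6.36 and 6.25 in cKO 1 to 3, against 6.31, 6.50 and 6.27 in Control 1 to 3. The groups were interleaved, with means of 6.36 ± 0.11 in cKO and 6.36 ± 0.12 in Control (SD, n = 3 each). The 95% interval of the difference, -0.34 to 0.34, leaves room for a change of either sign, and the sign itself turned positive with the number range as a block, without Control 2 and without cKO 3. On the annotation used for names, Chrne overlaps the gene 4930544D05Rik, and the sources used here did not give the strand of the feature's probes.

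Chrng had 4.16, 4.02 and 4.02 log2 units in cKO 1 to 3 and 3.90, 3.96 and 3.90 in Control 1 to 3. All cKO arrays were above all Control arrays, but these are levels near the array medians of 4.0 to 4.37, and cKO 1, the highest for Chrng, was also the array with the highest median. The difference was 0.15 as deposited and 0.091 after each array was centred on its median, where the groups overlapped. Of the 11 neuronal subunit genes (Chrna2 to Chrna7, Chrna9, Chrna10 and Chrnb2 to Chrnb4), 3 were tested and 0 had an unadjusted p under 0.05. These were Chrna7 at 0.076 (SE 0.11), Chrna2 at -0.025 (SE 0.31) and Chrna4 at -0.010 (SE 0.12).

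Within each array, the Chrna1 signal minus the Chrne signal was 4.596, 4.45 and 4.79 log2 units in cKO 1 to 3 and 3.37, 4.07 and 4.35 in Control 1 to 3. The groups did not overlap. For Chrnb1 minus Chrne the values were 1.55, 1.96 and 2.84 in cKO and 0.73, 0.97 and 1.69 in Control, where cKO 1 lay below Control 3. These contrasts were chosen after the values were seen and are given without a test.

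The stretch of 250 bases before the transcription start was examined because myogenic factors act on the subunit genes through E-boxes (CANNTG), and because an N-box (CCGGAA), bound by GABP, is known for synapse-specific expression of Chrne. Of the 10 genes, 8 had a window in the RefSeq promoter table (build GRCm38.p6), with 10 windows in all since Runx1 and Hdac9 have 2 each. Chrnd and Ncam1 had none. The 4 subunit genes with a window are shown 5′ to 3′ on the gene's own strand, with E-boxes and N-boxes in capitals, to set Chrna1 and Chrnb1 beside Chrne and Chrng. The windows lie at chr2:73580339-73580588 (minus strand) for Chrna1, chr11:69795938-69796187 (minus) for Chrnb1, chr11:70619195-70619444 (minus) for Chrne and chr1:87205561-87205810 (plus) for Chrng.
Chrna1: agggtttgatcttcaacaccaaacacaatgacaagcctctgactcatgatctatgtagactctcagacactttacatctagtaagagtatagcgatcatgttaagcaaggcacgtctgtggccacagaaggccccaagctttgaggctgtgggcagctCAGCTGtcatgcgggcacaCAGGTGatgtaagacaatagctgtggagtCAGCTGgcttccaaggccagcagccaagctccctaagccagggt
Chrnb1: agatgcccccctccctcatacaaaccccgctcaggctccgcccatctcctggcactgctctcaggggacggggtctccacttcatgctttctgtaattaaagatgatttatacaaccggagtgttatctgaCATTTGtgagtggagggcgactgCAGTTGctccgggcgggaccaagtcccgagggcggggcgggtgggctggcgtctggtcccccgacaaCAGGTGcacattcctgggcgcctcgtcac
Chrne: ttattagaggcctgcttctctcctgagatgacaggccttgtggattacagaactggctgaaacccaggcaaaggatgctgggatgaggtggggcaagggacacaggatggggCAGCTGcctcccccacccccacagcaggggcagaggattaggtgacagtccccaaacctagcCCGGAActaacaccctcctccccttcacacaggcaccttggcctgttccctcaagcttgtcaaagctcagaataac
Chrng: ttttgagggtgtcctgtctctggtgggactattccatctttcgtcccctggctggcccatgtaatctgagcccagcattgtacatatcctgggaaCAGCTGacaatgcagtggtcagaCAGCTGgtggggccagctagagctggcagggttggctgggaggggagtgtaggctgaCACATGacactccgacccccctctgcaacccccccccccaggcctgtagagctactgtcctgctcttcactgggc

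Chrna1, Chrnb1 and Chrng each had 3 E-boxes in the window and Chrne had 1, where both strands were searched and the motif reads as an E-box on either. An E-box is present in 66.2% of the 32851 windows of the table, so its presence sets none of these genes apart. The form CAGCTG, itself an E-box, occurs in 13.0% of windows and was found 2 times each in Chrna1 and Chrng, 1 time in Chrne and not in Chrnb1. The Chrna1 copies begin at positions -92 and -44 from the start. The N-box is in 12% of windows, and among the subunit genes it was found in Chrne alone, at -76. Runx1 had 3 E-boxes in one window and an N-box in the other, Gadd45a 1 of each, Hdac9 2 and 3 E-boxes in its windows, and Hdac4 neither motif. The RUNX core TGTGGT, present in 14.0% of windows on either strand, was not in any of the 10. A match of letters is a description and was not set against the signals by a test.

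**Figure D2:**
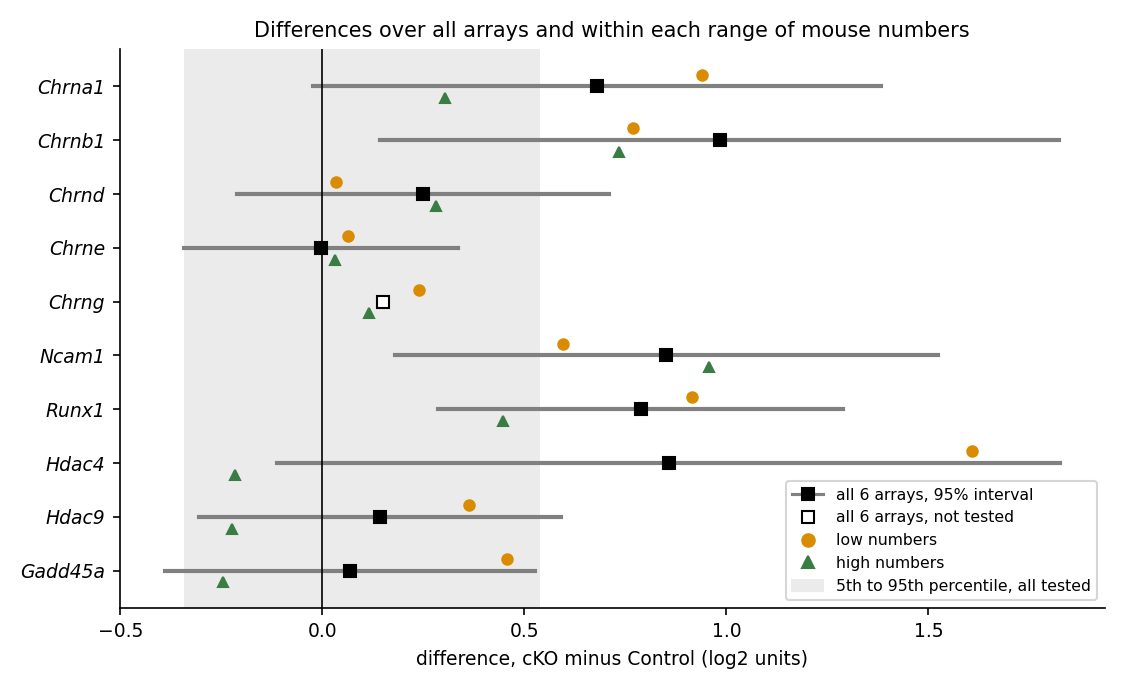
Difference between cKO and Control (horizontal axis, log2 units) for each gene, over all 6 arrays with limma's 95% interval (squares and grey bars, open where not tested), within the low mouse numbers (circles) and within the high ones (triangles). The light band is the 5th to 95th percentile of all features tested, -0.34 to 0.54. Chrnb1, Ncam1 and Runx1 have intervals above 0, and the triangles of Hdac4, Hdac9 and Gadd45a lie below 0.

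Among the denervation genes outside the receptor, Ncam1 and Runx1 separated the groups. Ncam1 encodes a cell adhesion molecule that in adult muscle is concentrated at junctions and on satellite cells, and spreads over denervated fibres. Its log2 signal was 8.34, 8.33 and 9.18 in cKO 1 to 3 and 7.98, 7.52 and 7.80 in Control 1 to 3. The lowest cKO array was 0.345 log2 units above the highest Control array, the widest gap of the 10 genes, and cKO 3 stood highest. The difference was 0.85 log2 units (SE 0.28, 95% interval 0.18 to 1.52, unadjusted limma p = 0.0204, exact permutation p = 0.1). Among low mouse numbers it was 0.59 and among high ones 0.96, and without cKO 3 it was 0.57. Its unadjusted p ran from 0.0165 to 0.128 over the other settings.

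Runx1 encodes a transcription factor that limits wasting in denervated mouse muscle. It had 6.15, 6.04 and 6.44 log2 units in cKO 1 to 3 and 5.33, 5.14 and 5.79 in Control 1 to 3. The groups did not overlap, with 0.247 log2 units between the lowest cKO and the highest Control array. The difference of 0.79 (SE 0.21, 95% interval 0.29 to 1.29) had the lowest unadjusted limma p of the 10, 0.00776, at rank 196 of the 33334 features tested. Its exact permutation p was 0.1. The low numbers gave 0.92 and the high numbers 0.45, and the unadjusted p stayed between 0.00180 and 0.0302 over the same settings. The adjusted p did not fall below 0.245 under any of them.

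Hdac4, the deacetylase that links nerve activity to these genes, differed more among Control arrays than any other of the 10. Its signals were 9.42, 8.96 and 9.01 in cKO 1 to 3, against 7.82, 7.80 and 9.20 in Control 1 to 3. Control 1 and Control 2 lay more than 1 log2 unit below every other array, while Control 3 was above cKO 2 and cKO 3. The difference was 0.86 over all arrays (SE 0.41, 95% interval -0.11 to 1.83, unadjusted limma p = 0.0745, exact permutation p = 0.3), 1.61 among low numbers and -0.22 among high ones. Without Control 3 it was 1.32 (unadjusted p = 0.000910), and without Control 2 it was 0.62. The other Hdac4 feature had the same pattern, at 7.94, 7.81 and 7.35 in cKO and 6.56, 6.67 and 7.85 in Control, a difference of 0.67 (SE 0.37).

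Hdac9 and Gadd45a had overlapping groups. Hdac9 stood at 5.95, 5.72 and 6.02 in cKO 1 to 3 and 5.60, 5.57 and 6.09 in Control 1 to 3, and its difference of 0.14 (SE 0.19, 95% interval -0.31 to 0.59) was 0.36 among low and -0.22 among high numbers, and turned to -0.032 when quantile normalization was joined to the range block. As for Hdac4, Control 3 was the highest Control array, here the highest of all. Gadd45a stood at 6.63, 6.26 and 6.08 in cKO and 6.29, 6.06 and 6.41 in Control, and its difference of 0.067 (SE 0.19, 95% interval -0.39 to 0.53) turned negative after quantile normalization, with array weights and without Control 2 or cKO 1. Low and high numbers gave 0.46 and -0.25. On the values as deposited, 7 of the 10 genes had a positive difference within both number ranges, against 34.6% of all features tested, and Hdac4, Hdac9 and Gadd45a were positive within the low and negative within the high range, as were 45.1% of all features. The 7 include Chrne, at only 0.062 and 0.030, whose difference was -0.058 when quantile normalization was joined to the range block.

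**Figure D3:**
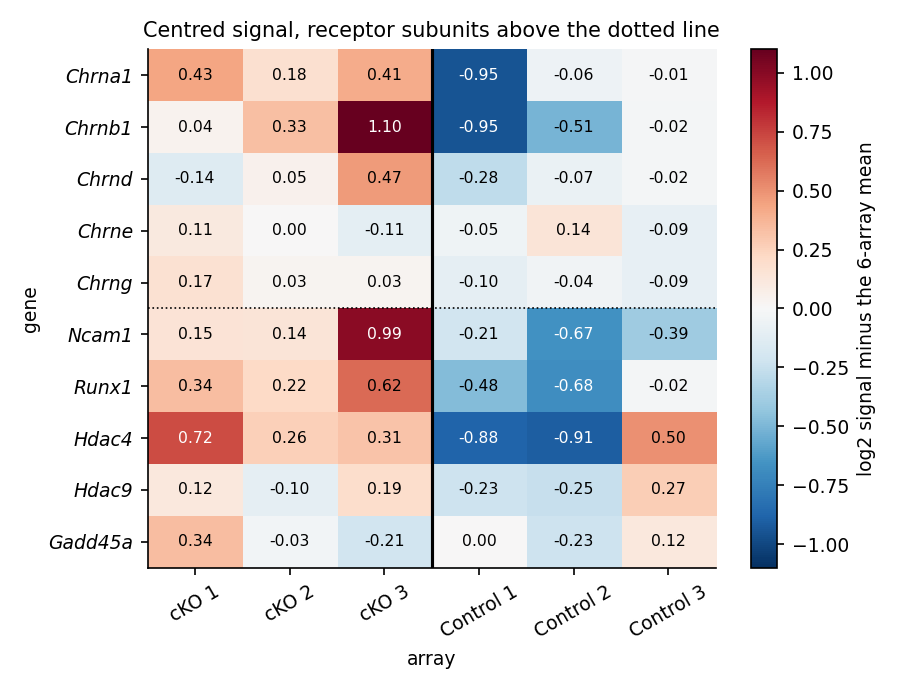
Log2 signal minus the gene's mean over 6 arrays (colour and printed value), with genes in rows, receptor subunits above the dotted line, and the 3 cKO arrays left of the 3 Control arrays. Control 1 holds the lowest values of Chrna1 and Chrnb1 (-0.95 each), cKO 3 the highest of Chrnb1 (1.1) and Ncam1 (0.99), and Control 3 is positive for Hdac4 (0.50), Hdac9 (0.27) and Gadd45a (0.12).

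Across the 10 genes, cKO 1 was the highest array for 4 and cKO 3 for 4, and Control 2 was the lowest for 5 and Control 1 for 4. The median difference was 0.25 over the 5 subunit genes and 0.79 over the other 5, Hdac9 among them, where the median over all features tested was 0.074. Full separation with cKO on top held for 5 of the 10 genes, Chrng included, and for 4 of the 9 tested, against 8.95% of all features tested. After quantile normalization, which brought the median over all features to -0.0038, it held for Chrna1 and Runx1, and after centring on array medians for Chrna1, Ncam1 and Runx1. The share of all features that separated was counted only on the values as deposited. The differences of Chrna1, Chrnb1, Ncam1 and Runx1 were 0.61, 0.87, 0.73 and 0.69 after quantile normalization.

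**Figure D4:**
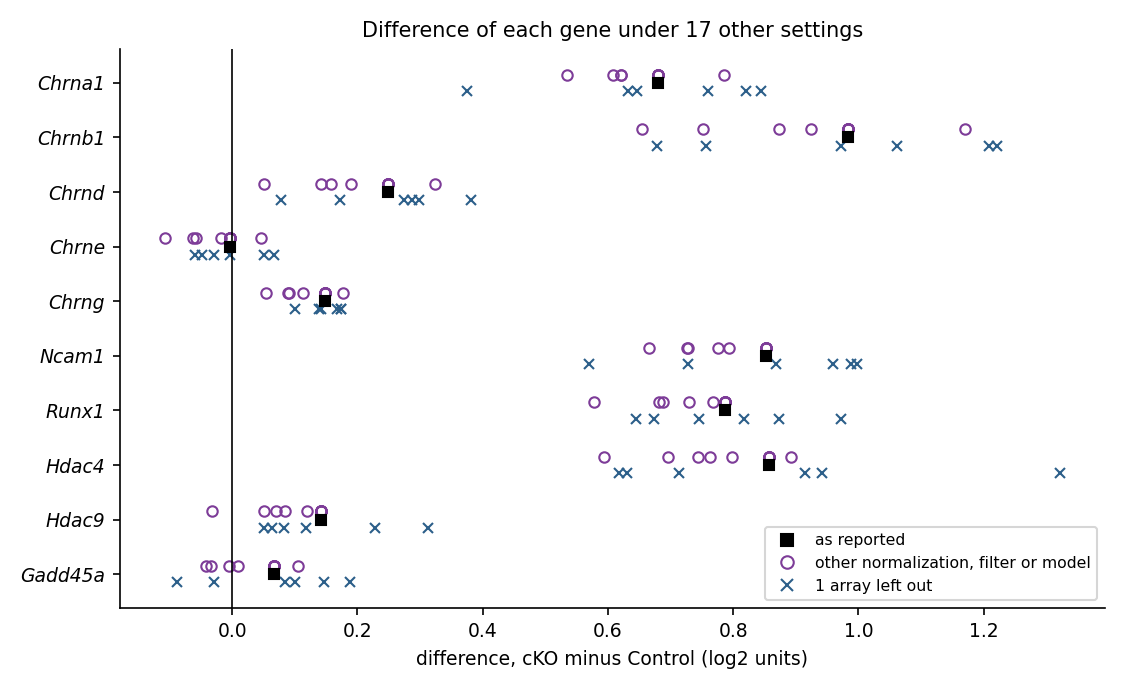
Difference between cKO and Control (horizontal axis, log2 units) of each gene as reported (square), under other normalizations, filters and models (open circles) and with 1 array left out (crosses). Chrna1 ranged from 0.37 to 0.84, Chrnb1 from 0.65 to 1.22, Ncam1 from 0.57 to 0.997, Runx1 from 0.58 to 0.97 and Hdac4 from 0.59 to 1.32, all above 0, while Chrne, Hdac9 and Gadd45a fell on both sides of 0.

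Other genes of the synapse were taken from a list of 18, of which 16 had a feature and 14 were tested. None passed an adjusted p of 0.05 in limma, while 2 had an unadjusted p under 0.05 with a higher mean in cKO and 0 with a lower one, and the median difference over the 16 was 0.10. The greatest was Musk, the receptor kinase that gathers acetylcholine receptors under the nerve. Its signal was 11.35, 12.33 and 12.48 in cKO 1 to 3 and 10.38, 10.79 and 10.82 in Control 1 to 3, with no overlap. Dok7, the cytoplasmic activator of MuSK, had 6.20, 6.24 and 6.24 in cKO and 5.85, 5.83 and 5.78 in Control, again with no overlap. Rapsn, whose product rapsyn clusters the receptor, differed by 0.37 (SE 0.16, unadjusted p = 0.0503), and Erbb3, a neuregulin receptor, by 0.28 (SE 0.12, unadjusted p = 0.0590). In all, 6 of the 14 had every cKO array above every Control array and 1 had every cKO array below. Over all features tested these shares were 8.95% and 2.05%, and 3.7% had an unadjusted limma p under 0.05 with a higher mean in cKO. The gene with every cKO array below was Colq, at -0.22 (SE 0.13), named after its values were seen. Of the 14, 11 had a higher mean in cKO and 3 a lower one, against 65.8% higher over all features tested.

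Of 13 further genes measured that are known to rise after denervation, 12 were tested and 0 passed the adjusted threshold. An unadjusted p under 0.05 was reached by 4 with a higher mean in cKO and by 1 with a lower one. Over all features tested, these shares were 3.7% and 0.807%. The median difference over the 13 was 0.36. Tnfrsf12a, the receptor of the cytokine TWEAK, stood at 10.18, 10.07 and 10.90 in cKO 1 to 3 and 8.57, 8.91 and 7.57 in Control 1 to 3. Myog, the gene of myogenin, had 5.61, 5.20 and 5.90 in cKO and 5.30, 4.79 and 5.45 in Control, with overlapping groups and a difference of 0.39 (SE 0.25), above an unadjusted p of 0.05. It was named after its values were seen. The myogenic regulator Myod1 differed by 0.59 (SE 0.17), the AMP deaminase gene Ampd3 by 1.16 (SE 0.34) and embryonic myosin Myh3 by 0.996 (SE 0.33), the last with overlapping groups. The gene with a lower mean and an unadjusted p under 0.05 was Fbxo32, the ubiquitin ligase atrogin-1 of wasting muscle. It was named here after its values were seen. It had 14.43, 14.51 and 14.05 in cKO and 14.93, 15.17 and 14.72 in Control, with no overlap. This is opposite to the direction for which it was listed. Of the 12 tested, 10 had a higher mean in cKO and 2 a lower one, against 65.8% higher over all features tested. The other lower gene was Trim63, at -0.52 (SE 0.31), with overlapping groups, also named after its values were seen.

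Of 5 genes known to fall after denervation, 0 passed the adjusted threshold, and the median difference was 0.18. A higher mean in cKO, opposite to the direction for which they were listed, was found for 4, and a lower one for 1. Over all features tested 65.8% had a higher mean. An unadjusted p under 0.05 was reached by 1 with a lower mean in cKO and by 0 with a higher one. Over all features tested, these shares were 0.807% and 3.7%. Dach2, the corepressor silenced through HDAC4 in denervated mouse muscle, had 6.003, 6.05 and 5.73 log2 units in cKO 1 to 3 and 6.35, 6.76 and 6.23 in Control 1 to 3. All cKO arrays were below all Control arrays, by a mean difference of -0.52 (SE 0.19, unadjusted p = 0.0305), against 2.05% of all features tested that separated in that direction. Low numbers gave -0.55 and high numbers -0.33. The glycolytic genes Eno3 and Pfkm differed by 0.32 (SE 0.18) and 0.18 (SE 0.16), and the nuclear receptor gene Nr4a1 by 0.14 (SE 0.33).

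A list around the class IIa deacetylases gave 11 genes tested: Hdac7, the MEF2 factors they repress (Mef2a, Mef2c and Mef2d), kinases that act on them (Sik1 and 4 Camk2 genes), the MEF2 target Hrc and the calcium-dependent factor gene Nfatc1. Of these, 0 were past the adjusted threshold and 0 at an unadjusted p under 0.05. The smallest p-values belonged to Mef2d at 0.65 (SE 0.29), Camk2a at 0.39 (SE 0.20), the sarcoplasmic reticulum gene Hrc at -0.57 (SE 0.30) and Sik1 at 0.59 (SE 0.33). Of the relatives of the 10 genes, the RUNX partner Cbfb differed by -0.21 (SE 0.23), Gadd45g by 0.17 (SE 0.29) and Gadd45b by -0.15 (SE 0.42), and Runx3 and Ncam2 were below the filter. Fbxo32 and the list genes picked by the naming rule, 23 in all and without Myog, Trim63 and Colq, kept their sign after quantile normalization and after centring on array medians. Of these, Musk, Dok7, Tnfrsf12a, Myod1, Ampd3, Dach2 and Fbxo32 still separated the groups after quantile normalization. Most of the 23 were picked by their p-values on these same arrays, so a kept sign or separation gives no separate support. The share of all features that separated after quantile normalization was not counted.

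**Figure D5:**
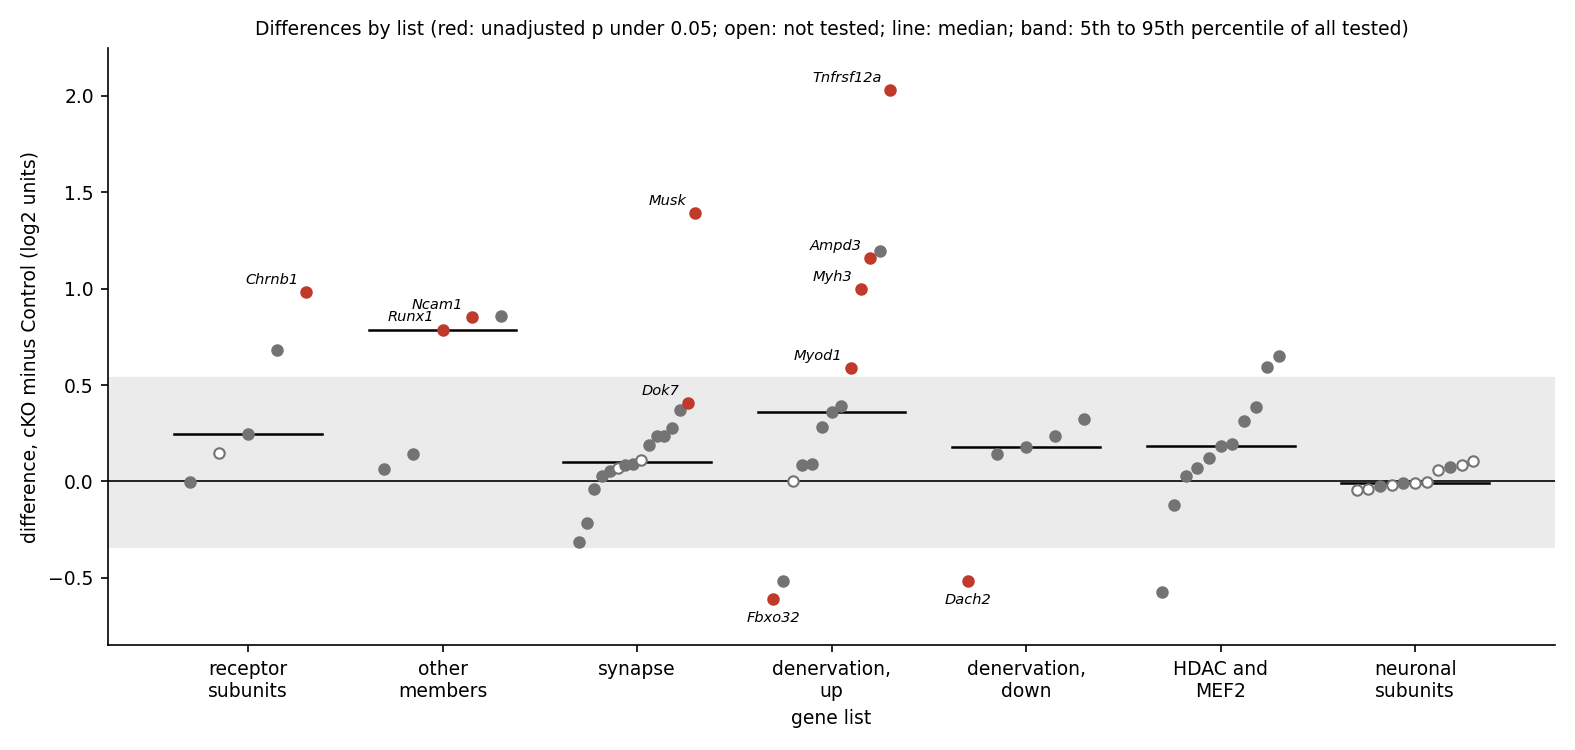
Difference between cKO and Control (vertical axis, log2 units) for each gene with a feature in 7 lists (horizontal axis), in red where the unadjusted p was under 0.05 and open where not tested, with the list median as a line. The receptor and other denervation genes have medians of 0.25 and 0.79, against 0.10 for the synapse, 0.36 for genes known to rise after denervation and -0.0085 for neuronal subunits.

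Markers of other cells that use some of these genes were read on the same arrays, as means of the log2 signals of the genes tested. In bulk tissue, more cells of a type and more RNA per cell cannot be told apart. Schwann cell markers, 5 tested of 6 measured with Mag below the filter, had array means of 6.25, 6.05 and 6.08 in cKO 1 to 3 and 6.05, 6.25 and 5.97 in Control 1 to 3, which overlapped. Satellite cell markers, 8 of 8 tested, had 6.75, 6.54 and 6.71 in cKO and 6.33, 6.42 and 6.54 in Control, where the groups just failed to overlap. Of the 8, 7 had a higher mean in cKO, against 65.8% of all features tested. An unadjusted p under 0.05 was reached by 1, Itga7, at 0.69, while Met differed by 0.45 without overlap and the satellite cell factor Pax7 by 0.096. Over all features tested, 3.7% had an unadjusted limma p under 0.05 with a higher mean in cKO and 0.807% with a lower one. Macrophage markers, 10 of 10 tested, overlapped, at 6.52, 6.22 and 7.06 in cKO and 5.97, 6.44 and 6.51 in Control, with a median difference of 0.32. Of the 10, 9 had a higher mean in cKO, against the same 65.8%. Cd68, C1qb and Itgam differed by 0.95, 0.52 and 0.38, and Cd14, the lower gene, by -0.36, with the only unadjusted p under 0.05 of the list. Tendon markers, 9 tested of 10 measured with Mkx below the filter, did not overlap, at 7.15, 7.31 and 7.43 in cKO and 5.77, 5.77 and 6.59 in Control. All 9 had a higher mean in cKO, against the same 65.8%. Their median difference of 1.27 was greater than the difference of any of the 10 genes, at most 0.98 for Chrnb1. An unadjusted limma p under 0.05 was reached by 6, against 3.7% of all features tested with a higher mean. Every cKO array was above every Control array for 6, against 8.95%. Control 3 was the highest Control array for tendon, satellite cell and macrophage markers, and for Chrna1, Chrnb1, Chrnd, Runx1, Hdac4, Hdac9 and Gadd45a. Its 75th percentile over all features with a value, 5.64, was also the highest of the Control arrays, against 5.49 and 5.48. Endothelial markers, 8 of 8 tested, overlapped, at 9.04, 8.87 and 9.08 in cKO and 9.64, 9.21 and 8.68 in Control. Of the 8, 6 had a lower mean in cKO and 2 a higher one, against 65.8% higher over all features tested, with a median difference of -0.27. Cldn5, at -0.45, and Sox18, at 0.64, had an unadjusted limma p under 0.05, against 0.807% of all features tested lower and 3.7% higher. Lymphocyte markers had 2 of 5 above the filter, and bone markers 2 of 8, with Dmp1, Sost and Mepe below it. The part of these markers in the differences of the receptor and denervation genes was not tested.

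The genes most like Chrna1 over the 6 arrays were sought among 13103 named genes past the filter, once the 10 genes themselves and predicted genes (symbols of Gm and a number, or ending in Rik) were left out, by the root mean square difference of log2 signals that were each centred on their own mean. The nearest was Cacnb1, the β subunit of the muscle calcium channel, at 0.115 log2 units, followed by Hcfc1r1 and Resf1 (0.122 each), Cidec (0.138) and the histone gene H2ac10 (0.143). Cacnb1 had 10.42, 10.40 and 10.45 in cKO 1 to 3 and 9.30, 9.88 and 10.06 in Control 1 to 3, with Control 1 the lowest array as for Chrna1.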

How the data were processed

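Whole-transcript Affymetrix arrays measured total RNA (100 ng per sample, biotin label) of soleus from 3 cKO and 3 Control mice, 1 array per mouse, and the number of arrays limits the precision. The table the authors deposited was read as log2 signals per feature because its values ran from 1.92 to 19.93. The sources used here did not state log base, background correction, summarisation, normalization or build. Of 72688 features, 6732 held no value and were left out. Symbols came from the platform annotation (30604 features with 1 symbol, 2146 with several, 33206 unnamed), of which 22818 were matched by Entrez number to RefSeq genes on GRCm38.p6 and 827 updated. Where a gene had more than 1 feature, that of highest mean signal stood for it.

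The test took the 33334 features that exceeded their array's median on 3 or more arrays, with limma 3.58.1 in R 4.3.3 (lmFit, eBayes with an intensity trend, two-sided, no block), with Benjamini-Hochberg adjustment over all of them. Single differences also got an exact permutation test over the 20 labelings of 6 arrays. The fit was tested on simulated data. Groups, replicate numbers and mouse numbers came from the labels. Same-numbered cKO and Control arrays deviated from their group means with correlations of 0.128, -0.204 and 0.205, so the numbers were not taken as pairs. Alternatives were quantile normalization, median centring, other filters and variance models, array weights, the replicate number or number range as a block, each array left out, and the mean of a gene's features.

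The genes and lists were chosen with earlier results of these data known. Named beside the 10 genes were Mbtps1, the 4 smallest unadjusted p-values of each synapse, denervation and deacetylase list, up to 4 relatives and neuronal subunits past the filter, cell type markers, and the 5 genes nearest to Chrna1. Fbxo32, Trim63, Myog, Colq and the markers named singly were chosen after their values were seen. Figures were drawn with Python 3.11.15 and matplotlib 3.10.9.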

Additional observations from a re-analysis of the deposited data

How the results depend on the processing

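No gene of the 10 passed an adjusted p of 0.05 under any of the 17 other settings, where the lowest adjusted p was 0.227 (Hdac4, without Control 3). The count at an unadjusted p under 0.05, 3 as reported, was 5 with array weights, 1 (Runx1) when quantile normalization was joined to a number range block, and 2 to 5 with 1 array left out, the 5 without Control 3. With array weights 12.8% of all features tested had that p, with quantile normalization and the range block 6.59%, and without Control 3 9.43%, against 4.5% as reported. Control 3 was the only Control array of the high range, so without it all Control arrays were of the low range. Full separation, 5 genes as reported, held for 2 genes after quantile normalization, with or without the range block, for 3 after median centring, and for 5 to 7 with 1 array left out. The share of all features that separated was not counted under these settings. The median of the receptor subunits, 0.25, was 0.054 with quantile normalization and the range block, and 0.17 to 0.38 with 1 array left out, and that of the other 5 genes was 0.57 to 0.87 with 1 array left out. The difference of Gadd45a was -0.041 after quantile normalization, -0.034 with array weights, -0.0054 with quantile normalization and the range block, and -0.088 to 0.19 with 1 array left out. That of Chrne was 0.046 with the range block and -0.060 to 0.066 with 1 array left out, and that of Hdac9 was -0.032 with quantile normalization and the range block. The cause of these changes was not tested. With the replicate block the count at an unadjusted p under 0.05 stayed at 3, the same genes, and the median of the receptor subunits at 0.25. Array signals near their medians limit what can be said of Chrng.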
